A study of Mus musculus with 9 samples.

Results

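The 10 genes described here are immediate early genes of neuronal activity, taken by symbol from a table of 57010 genes measured in mouse hippocampus. They are Fos, Fosb and Junb, Egr1, Egr2, Egr3 and Egr4, Arc, Npas4 and Nr4a1. All 10 had a single entry, and all 10 were among the 17967 genes that passed the filter on low counts. All mice were C57BL/6J. Sham mice had the L5 spinal nerve found but not tied and then solvent. In SNL mice the nerve was ligated, an injury used as a model of neuropathic pain, and solvent followed. CBD mice had the same ligation and then cannabidiol, a non-intoxicating cannabinoid of the hemp plant, injected into the peritoneum at 5 mg/kg for 15 days. There was no group with cannabidiol and no ligation, and neither age, sex, pooling of animals nor the time from the last injection to dissection is given in the sources used here. Each group had 3 libraries. Nothing in the labels says that they came from separate animals, so p-values measure the spread between these libraries, which may be technical.

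Immediate early genes are transcribed within minutes of a calcium rise in a neuron, from transcription factors that are already in place and without new protein. CREB bound at cAMP response elements and serum response factor bound at CArG boxes are the best known of these. In the hippocampus the RNA of these genes is widely used to mark neurons that were active shortly before the tissue was taken, and most of the proteins are themselves transcription factors that switch on a later set of genes.

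The expected counts of a library, the read counts that RSEM estimates per gene, summed to between 16972620 and 20470546. Hippocampal markers were present in all 9 libraries, with Prox1 of dentate granule cells between 56 and 139 CPM and Wfs1 of CA1 pyramidal cells between 52.1 and 139 CPM (counts relative to library size, scaled by trimmed mean of M-values). Among markers of neighbouring tissue, those of the hypothalamus stood apart in 3 libraries. Pmch, the precursor of melanin-concentrating hormone of the hypothalamus, reached 200 CPM in SNL 1, 146 CPM in CBD 1 and 43.9 CPM in SNL 2, against at most 0.797 CPM in the other 6. The summed level of 9 thalamus and habenula markers ran from 312 to 482 CPM in Sham, 554 to 1420 CPM in SNL, then 520 to 702 CPM in CBD. That of 8 choroid plexus markers ran from 141 to 1320 CPM in Sham, 265 to 2220 CPM in SNL, then 1140 to 1890 CPM in CBD. The summed level of 8 dentate granule cell markers ran from 346 to 565 CPM in Sham, 195 to 301 CPM in SNL, then 213 to 403 CPM in CBD. In such bulk tissue, fewer cells of a type and less RNA per cell cannot be told apart.

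The sequences around the start sites show what the members share upstream. RefSeq windows of build GRCm38.p6, from 250 bases before to 50 bases after a start, were at hand for 7 members. Arc, Egr1 and Egr3 are named only. The core of the cAMP response element, TGACG, searched on both strands, was in at least 1 window of all 7 members, against 23.05% of 27025 genes counted the same way. By window it was in 9 of the members' 11, 3 of these being overlapping windows of Egr2, which has 5, and in 20.81% of 32851 windows of all genes. The full element TGACGTCA, which contains this core, was in none of the 11 windows of these members and in 1.79% of all windows. The AP-1 site TGANTCA was in none of the 11 and in 7.81% of all. The CArG box was in windows of Egr2 and no other of the 7 members, and in 1.63% of all windows. The GC box GGGCGG was in windows of 5 of the 7 members, against 38.2% of genes. The members' windows had a GC content of 56.0 to 72.3%, and the shares over all genes were not matched for GC content. A match is a run of letters in a window, not a measured binding site. Elements more than 250 bases before a start, CArG boxes among them, would not be seen here. The windows of 4 members are shown because the results turn on them: Egr4 and Junb were furthest below Sham in CBD in relation to their error, Fos did not move with the rest, and Npas4 had the narrowest span. Capitals mark TGACG or its reverse complement CGTCA, and each sequence is read along the strand of the gene.
Egr4, chr6:85513540-85513839, minus strand: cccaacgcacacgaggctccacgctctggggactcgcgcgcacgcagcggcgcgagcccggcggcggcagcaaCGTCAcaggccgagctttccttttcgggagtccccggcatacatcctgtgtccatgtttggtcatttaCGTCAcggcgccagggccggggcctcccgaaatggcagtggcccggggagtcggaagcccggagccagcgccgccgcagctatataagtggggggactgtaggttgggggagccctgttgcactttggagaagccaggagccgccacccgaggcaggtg
Junb, chr8:84978699-84978998, minus strand: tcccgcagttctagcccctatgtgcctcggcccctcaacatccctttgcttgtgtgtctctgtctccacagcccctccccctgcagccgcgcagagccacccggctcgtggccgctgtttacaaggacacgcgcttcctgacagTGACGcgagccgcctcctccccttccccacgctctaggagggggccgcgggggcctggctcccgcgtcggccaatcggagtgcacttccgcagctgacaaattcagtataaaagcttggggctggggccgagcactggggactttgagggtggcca
Fos, chr12:85473640-85473939, plus strand: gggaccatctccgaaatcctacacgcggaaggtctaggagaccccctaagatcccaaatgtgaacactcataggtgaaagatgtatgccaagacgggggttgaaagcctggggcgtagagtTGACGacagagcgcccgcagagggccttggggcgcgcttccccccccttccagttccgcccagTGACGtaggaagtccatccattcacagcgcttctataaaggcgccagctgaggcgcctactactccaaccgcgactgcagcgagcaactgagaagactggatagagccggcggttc
Npas4, chr19:4989922-4990221, minus strand: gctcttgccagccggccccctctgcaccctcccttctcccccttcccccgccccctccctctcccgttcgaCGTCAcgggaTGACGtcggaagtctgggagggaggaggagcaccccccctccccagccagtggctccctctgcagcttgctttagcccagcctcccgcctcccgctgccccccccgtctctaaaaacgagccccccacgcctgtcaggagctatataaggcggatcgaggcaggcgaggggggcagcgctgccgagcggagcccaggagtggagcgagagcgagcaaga

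The core stood at 2 places in the windows of Egr4, Fos and Npas4 and at 1 place in that of Junb. In Fos these began 129 and 66 bases before the start. Whether the cores have a part in the levels of these genes was not tested.

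The members spanned a wide range of levels. Per kilobase of the longest GENCODE M21 transcript, the mean over 9 libraries was 17.3 CPM for Arc, the cytoskeleton-associated protein whose RNA travels to active dendrites. It was 14.2 CPM per kilobase for Egr1, 12.8 for Egr3, 12.6 for Nr4a1 and 12.4 for Junb, and the ranges over libraries of these 5 genes overlapped throughout. A lower set held Egr4 at 3.86, Fos at 3.78 and Npas4 at 2.32 CPM per kilobase. Fosb was at 1.11, and its highest library, 1.66, lay under the lowest library of Npas4, 1.7. Egr2 was lowest, with a mean of 0.244 CPM per kilobase and between 9 and 20 counts in a library, so its values carry the largest counting error. On this per-length scale, Arc lay above 78.8% of the genes that passed the filter and had a length, and Egr2 above 4.4%.

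The EGR proteins are zinc finger transcription factors that bind GC-rich sites. Egr4 stood at 17.2, 15.5 and 7.9 CPM in Sham 1, 2 and 3, at 5.78, 6.68 and 5.84 CPM in SNL 1, 2 and 3, and at 3.9, 5.73 and 6.14 CPM in CBD 1, 2 and 3. Every Sham library lay above all 6 ligated libraries, and Sham 3 lay closer to these than to Sham 1 and 2. Egr3 stood at 78.1, 77.7 and 46.2 CPM in Sham 1 to 3, at 32.6, 32.7 and 43.8 CPM in SNL 1 to 3, and at 23.7, 54.9 and 65.7 CPM in CBD. Its SNL libraries lay below all Sham libraries, while CBD held both the lowest library of all and 2 that overlapped Sham. Egr1, also called Zif268, stood at 89.7, 78.4 and 59.8 CPM in Sham 1 to 3, at 61.3, 67.5 and 58.6 CPM in SNL 1 to 3, and at 38.3, 55.6 and 65.9 CPM in CBD. The Egr1 groups overlapped, with CBD 1 lowest. Egr2 stood between 0.464 and 1.02 CPM in all 9 libraries, and its 3 CBD libraries lay just under the lowest of Sham.

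**Figure D1:**
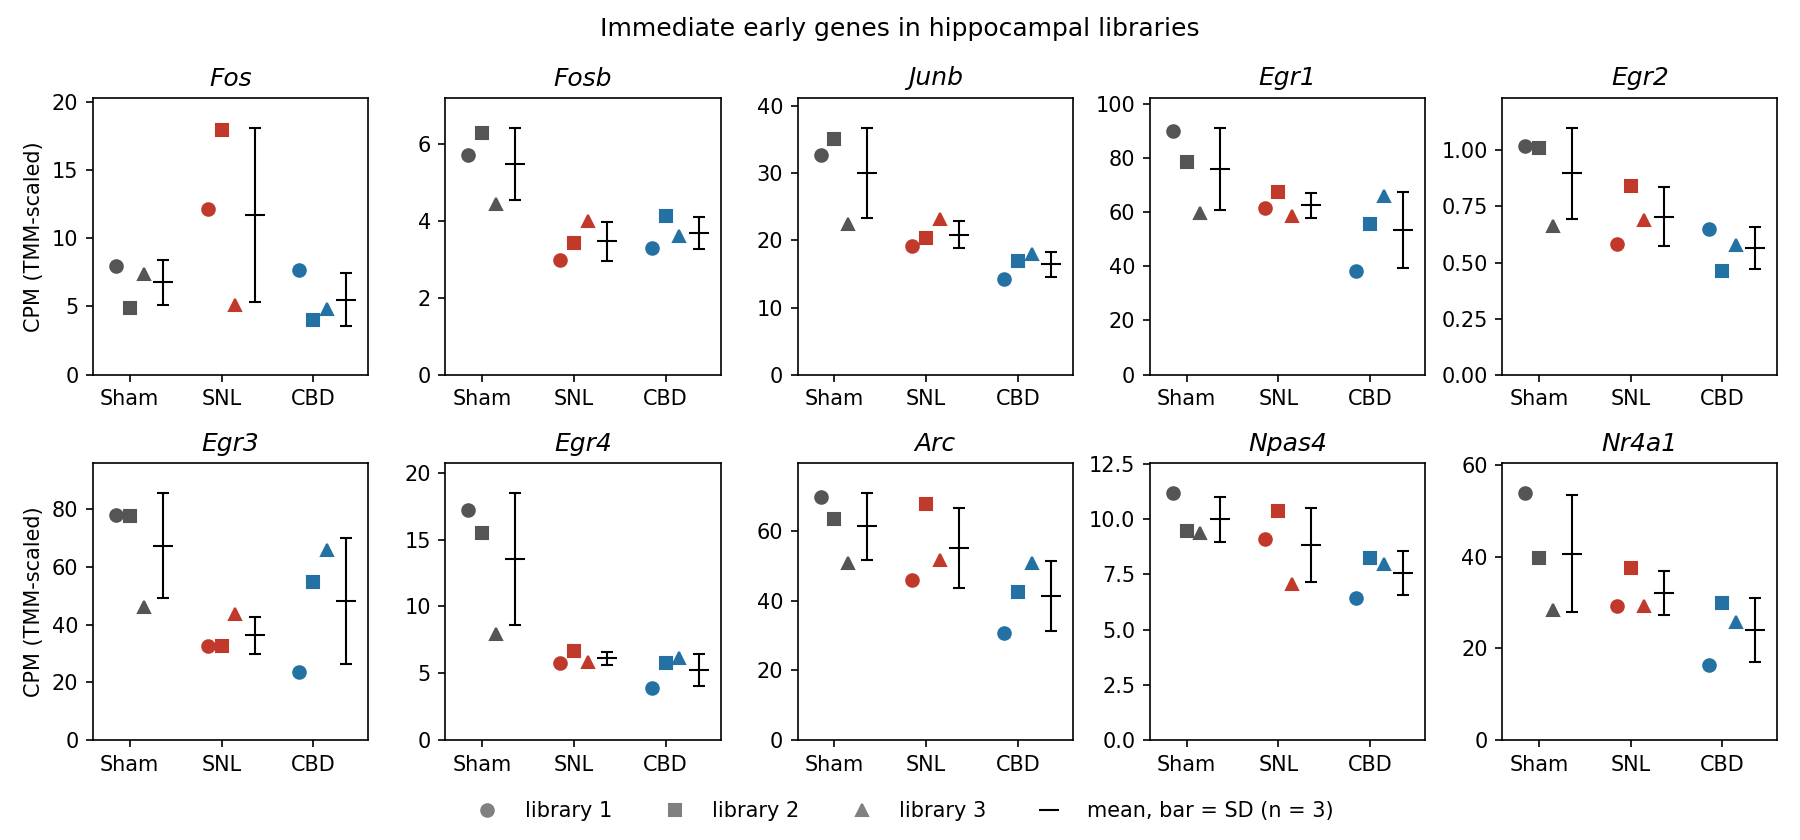
CPM of each immediate early gene (vertical axis, linear, from 0) in the 3 libraries of Sham, SNL and CBD; symbols give the library number, and the black mark with its bar is the mean and SD of 3. Sham 1 is the highest library for 7 of the 10 genes and CBD 1 the lowest for 7, while Fos peaks in SNL 2 at 17.9 CPM.

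Fos, Fosb and Junb encode subunits of AP-1, the dimeric factor made of a FOS and a JUN protein. Junb stood at 32.7, 35.1 and 22.5 CPM in Sham 1 to 3, at 19.1, 20.3 and 23.2 CPM in SNL 1 to 3, and at 14.3, 16.9 and 18 CPM in CBD. All 3 CBD libraries lay below all libraries of both other groups, and SNL 3 alone overlapped Sham 3. Fosb, whose spliced product deltaFosB is long lived, stood at 5.71, 6.27 and 4.44 CPM in Sham 1 to 3, at 2.98, 3.42 and 3.98 CPM in SNL 1 to 3, and at 3.3, 4.13 and 3.59 CPM in CBD. All 6 ligated libraries of Fosb lay below the 3 Sham libraries, and SNL and CBD overlapped each other. Fos went another way, at 7.95, 4.9 and 7.39 CPM in Sham, 12.1, 17.9 and 5.1 CPM in SNL, then 7.69, 3.97 and 4.81 CPM in CBD. SNL 1 and SNL 2 were the highest libraries of Fos, and SNL 3 lay within the range of the other groups.

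Npas4 is a neuron-specific factor induced by calcium entry, and Nr4a1 is an orphan nuclear receptor. Npas4 stood at 11.2, 9.45 and 9.38 CPM in Sham 1 to 3, at 9.1, 10.4 and 7.07 CPM in SNL 1 to 3, and at 6.44, 8.26 and 7.99 CPM in CBD. Its CBD libraries lay below those of Sham, and the highest library was 1.73 times the lowest, the smallest span of the 10. Nr4a1 stood at 53.9, 39.6 and 28.4 CPM in Sham 1 to 3, at 29.2, 37.5 and 29.2 CPM in SNL 1 to 3, and at 16.3, 29.9 and 25.7 CPM in CBD. Arc stood at 69.9, 63.6 and 50.9 CPM in Sham 1 to 3, at 45.9, 68 and 51.7 CPM in SNL 1 to 3, and at 30.9, 42.5 and 51 CPM in CBD. For both genes the groups overlapped, with CBD 1 the lowest library.

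SNL against Sham addresses nerve ligation. In this comparison 9 of the 10 early genes had a log2 fold change below 0, as did 48.4% of all genes tested. Fos was above 0, as were 51.6% of all. The median log2 fold change was -0.345, against 0.01 over all genes. Egr4 was 2.22-fold lower in SNL (log2 fold change -1.15, SE 0.28), Egr3 1.85-fold lower (-0.89, SE 0.33) and Fosb 1.58-fold lower (-0.66, SE 0.21). Junb followed at -0.53 (SE 0.17). Nr4a1, Egr2, Egr1, Npas4 and Arc lay between -0.35 and -0.15, each by less than 1.5 times its SE, and Fos was at 0.79 (SE 0.41).

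By edgeR's quasi-likelihood test with Benjamini-Hochberg adjustment over all genes, 0 of the 10 passed an adjusted p under 0.05, as did 0% of the 17967 genes. The adjusted p was 0.22 for Egr4, 0.253 for Fosb, 0.258 for Junb and 0.291 for Egr3. At an unadjusted p under 0.05, 4 members were lower, against 7.96% of all genes lower, and 0 were higher, against 5.83%. For Egr3, Egr4 and Fosb all SNL libraries lay below all Sham libraries, 3 of 10 against 9.81% of all genes. DESeq2's Wald test called Egr4 (adjusted p 0.0149) among 363 genes, 2.02% of those tested, and limma voom called 1 gene, 0.00557%, and none of the 10. At an unadjusted p under 0.05 edgeR held 2478 genes. The median of the 10 was -0.194 without Sham 1 and -0.528 without Sham 3. Fos was at 0.345 without SNL 2, Nr4a1 at -0.091 without Sham 1 and Arc at -0.03 without SNL 1.

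Other measures differed between the same libraries. The share of mitochondrial counts was 3.2 to 4.56% in Sham and 4.76 to 6.29% in SNL. In SNL against Sham, 8 of 8 dentate granule cell markers (median log2 fold change -0.80), 7 of 7 CA1 markers (-0.47) and 6 of 7 CA3 markers (-0.37) were below 0. Above 0 were 8 of 8 endothelium and pericyte markers (0.56), with sums of 269 to 321 CPM in Sham and 381 to 501 CPM in SNL, and 6 of 6 oligodendrocyte markers (0.39). All 6 oligodendrocyte markers (-0.51) and 9 of 9 thalamus and habenula markers (-0.55) were below 0 in CBD against SNL. Above 0 in that comparison were 7 of 8 dentate (median 0.325), 4 of 7 CA1 (0.216) and 4 of 7 CA3 markers (0.274). In CBD against Sham 7 of 8 dentate and 6 of 7 CA1 markers were below 0, and the mitochondrial share in CBD was 4.52 to 6.65%. Apart from the thalamus and habenula level, the part of these measures in the members' values was not tested.

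CBD against SNL addresses the drug, since both groups had the ligation. Fos was 2.13-fold lower in CBD (log2 fold change -1.09, SE 0.41), with a mean of 11.7 CPM ± 6.40 (SD, n = 3) among SNL libraries and 5.49 CPM ± 1.95 among those of CBD. Nr4a1 (-0.42, SE 0.26), Arc (-0.41, SE 0.20) and Junb (-0.35, SE 0.17) had smaller values in the same direction. Egr3 was at 0.40 (SE 0.33) and Fosb at 0.09 (SE 0.21). 8 of the 10 had a log2 fold change below 0, against 50.1% of all genes, with a median of -0.276 against -0.001.

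By the edgeR test 0 of the 10 and 0% of all genes passed, and the adjusted p of Fos was 0.321. At an unadjusted p under 0.05, Fos alone was lower, against 7.2% of all genes, and 0 were higher, against 6.5%, of 2462 genes or 13.7% in both directions. Of the 10, only Junb had groups that did not overlap, lower in CBD, against 10.1% of all genes, and 0 were wholly higher, against 9.18%. DESeq2 called 156 genes, 0.868%, and limma voom 1132, 6.3%, in each case none of the 10, though DESeq2 gave Fosb and Egr2 no adjusted p. The log2 fold change of Fos was -0.64 without SNL 2 and -0.22 without the 3 libraries that held hypothalamic transcripts, a fit in which SNL 3 is the lone SNL library and is assumed to vary like the other groups. The median of the 10 was -0.174 without SNL 2, -0.173 without CBD 1 and -0.06 without those 3 libraries. With any 1 library left out, Egr3 ranged from 0.113 without CBD 3 to 0.72 without CBD 1, Nr4a1 from -0.609 to -0.213 and Arc from -0.589 to -0.236.

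CBD against Sham spans both the ligation and the drug. It shares its Sham libraries with the first comparison and its CBD libraries with the second. All 10 members had a log2 fold change below 0, against 49.9% of all genes, with a median of -0.57 against 0.001. Egr4 was 2.57-fold lower in CBD (-1.36, SE 0.28), Junb 1.83-fold lower (-0.87, SE 0.17) and Nr4a1 1.70-fold lower (-0.76, SE 0.26). Egr2 (-0.67, SE 0.35), Fosb (-0.57, SE 0.21), Arc (-0.57, SE 0.20), Egr1 (-0.51, SE 0.20), Egr3 (-0.49, SE 0.33), Npas4 (-0.40, SE 0.18) and Fos (-0.30, SE 0.41) followed.

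By the edgeR test 0 of the 10 and 0% of all genes passed, with an adjusted p of 0.213 for both Egr4 and Junb. Among the 17967 genes Junb ranked 23 by p and Egr4 ranked 42. At an unadjusted p under 0.05, 6 members were lower, against 8.87% of all genes lower, and 0 were higher, against 7.41%, among 2925 genes in all. For 5 members, Fosb, Junb, Egr2, Egr4 and Npas4, all CBD libraries lay below all Sham libraries, against 11.1% of all genes. For Egr2, with 9 to 20 counts a library, this rests on 0.65 CPM in CBD 1 against 0.663 CPM in Sham 3. DESeq2 called Egr4 (adjusted p 0.00257) and Junb (0.00347) among 380 genes, 2.11% of those tested, and gave Fosb and Egr2 no adjusted p. Limma voom with sample weights called the same 2 members, at 0.0302 and 0.0289, among 1051 genes, 5.85%. All 10 stayed below 0 without the 3 libraries that held hypothalamic transcripts, with a median of -0.518. With any 1 library left out, Egr3 ranged from -0.778 without CBD 3 to -0.164 without CBD 1, and Fos from -0.623 without CBD 1 to -0.11 without CBD 2.

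**Figure D2:**
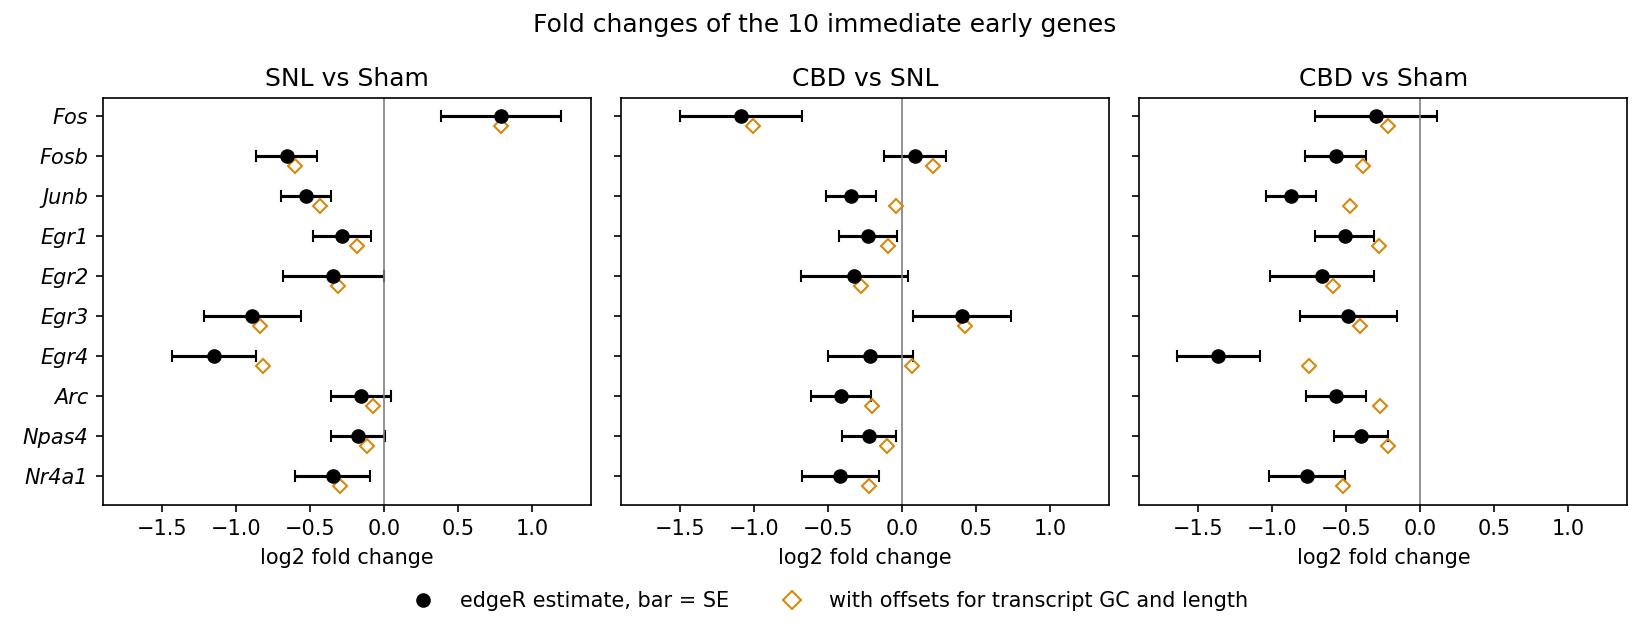
Log2 fold change (horizontal axis) of the 10 genes in each comparison; black points with bars are the edgeR estimates with their SE, and open diamonds the estimates after offsets for transcript GC content and length. In CBD against Sham all 10 points lie below 0, and the diamonds lie nearer to 0, with Egr4 at -0.75 instead of -1.36.

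The members have GC-rich transcripts, and fold changes of all genes went with GC content and with transcript length. The median GC content of the 10 was 56.5%, against 49.3% over all genes tested. Egr4, at 68.2%, was above 99.8% of these genes, and Junb, at 62.6%, above 98.7%. Across 17642 genes, which are not independent replicates, Spearman's rho between GC content and log2 fold change was -0.15 in SNL against Sham, -0.44 in CBD against SNL and -0.56 in CBD against Sham. With transcript length in place of GC content, rho was -0.19, 0.36 and 0.16 in the same order. The 761 genes with a GC content of at least 60% had medians of -0.11, -0.27 and -0.39 in the same order. After offsets that remove the GC and length trends from each library, Egr4 was at -0.82 in SNL against Sham and -0.75 in CBD against Sham, and Junb at -0.43 and -0.475. Egr3, at 51.3% GC, was at -0.89 in SNL against Sham before the offsets and -0.84 after. With the offsets, 9 members in SNL against Sham and all 10 in CBD against Sham kept a value below 0, the medians were -0.30 and -0.40, and none passed. In CBD against SNL the median came to -0.099. The offsets remove both trends together, so neither was tested alone.

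Most pairs of genes other than Fos had levels that were correlated from library to library. Over 9 libraries the 36 pairs without Fos had a median Pearson r of 0.79, from 0.35 to 0.95, and a median Spearman rho of 0.70. After the mean of each group was taken out, the median Pearson r of these pairs was 0.69, from -0.01 to 0.90. The lowest of these were Fosb with Npas4, at -0.01, and Egr2 with Egr3, at 0.07. The 9 pairs with Fos had a median of 0.05 over all libraries and -0.14 within groups, and Fos with Egr3 was at -0.56. These are descriptions over 9 points that share library depth, tissue content and GC trend. Summed over the 10 genes, the level was 367.4, 331.6 and 237.6 CPM in Sham 1 to 3, 218.6, 265.1 and 229.1 CPM in SNL, and 145.6, 222.3 and 249.4 CPM in CBD. Sham 3 was the lowest Sham library for 9 of the 10 genes, and CBD 1 was the lowest CBD library for 8. Within groups the SD of Egr3 was 0.54 on the log2 CPM scale, larger than for 98.6% of the 2689 genes of like abundance, and that of Fos was 0.63, larger than for 94.2% of 1853. The spread of Nr4a1, Arc, Egr1, Egr4 and Junb was also larger than for most genes of their abundance, at 94.6%, 91%, 89.8%, 82.1% and 74.6%. Npas4 (0.21), Fosb (0.21) and Egr2 (0.25) varied no more than most genes of their abundance, with 42.1%, 20.6% and 3.9% of such genes below them.

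**Figure D3:**
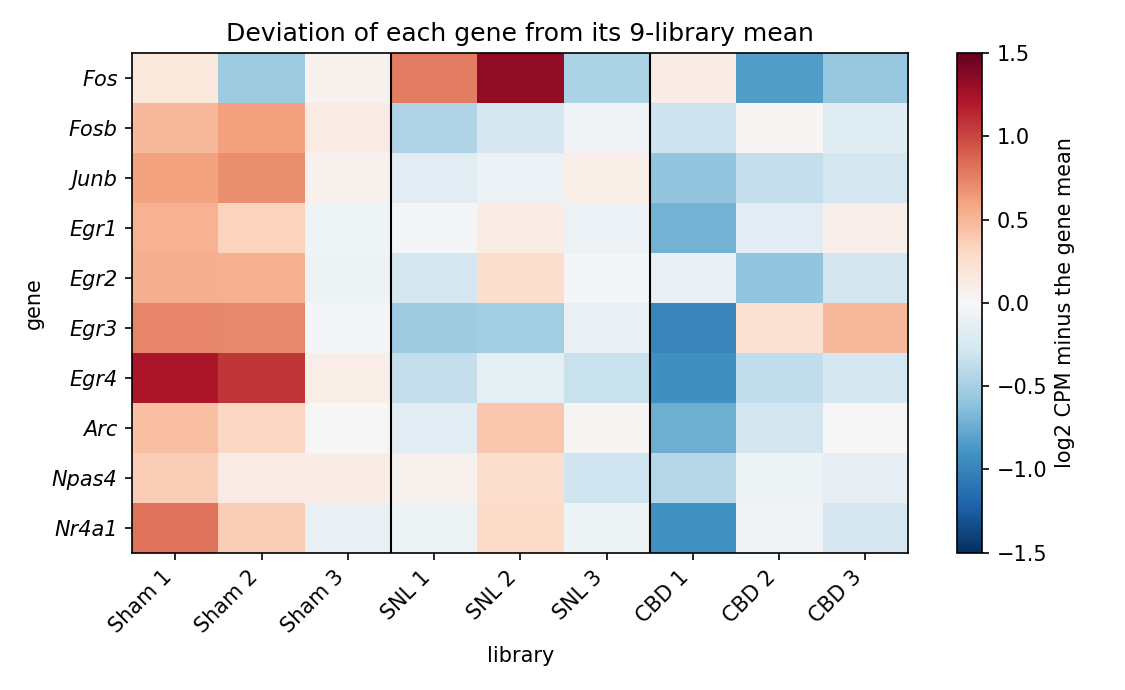
Deviation of log2 CPM (here with no prior count) from the mean of each gene over the 9 libraries (colour scale, blue lower and red higher, in log2 units), with genes as rows and libraries as columns; black lines part the groups. Most genes are red in Sham 1 and Sham 2 and blue in CBD 1, and Fos is red in SNL 1 and SNL 2.

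Within SNL and within CBD, Fos was higher in the libraries with hypothalamic transcripts than in those without. Across all groups, Fos did not follow the hypothalamus markers in every library. The 2 libraries with the highest Fos, SNL 2 at 17.9 CPM and SNL 1 at 12.1 CPM, had summed hypothalamus markers (10 genes) of 65.5 and 298 CPM. CBD 1 had the highest sum of all, 396 CPM. Its Fos, at 7.69 CPM, lay above CBD 2 at 3.97 CPM and CBD 3 at 4.81 CPM. It lay just below Sham 1 at 7.95 CPM, whose sum was 2.96 CPM. In the other 6 libraries this sum was 2.96 to 8.57 CPM, and the orexin gene Hcrt was at 0 in 4 of them. The thalamus and habenula sum was highest in SNL 2, at 1420 CPM, then in CBD 3, at 702 CPM, and SNL 1, at 661 CPM. Prkcd alone gave 220 CPM in CBD 3 and 118 CPM in SNL 1. The covariate used below is the summed log2 CPM of these markers, scaled over the libraries. By that score SNL 2 (1.87) and SNL 1 (0.67) lay above CBD 3 (0.45), where Fos was at 4.81 CPM. All 9 thalamus and habenula markers had a fold change above 0 in SNL against Sham. SNL 1, SNL 2 and CBD 1 were the lowest 3 for Egr3, at 32.6, 32.7 and 23.7 CPM, and the lowest 3 of dentate markers were SNL 1, CBD 1 and SNL 3, at 195, 213 and 286 CPM. Without the 3 libraries the log2 fold change of Fos in SNL against Sham was -0.395, against 0.79 over all libraries. That fit leaves out the 2 libraries with the highest Fos and keeps SNL 3 as the lone SNL library, so its sign decides nothing. With the thalamus and habenula level as a covariate the value of Fos was -0.59. Egr3 kept its direction, at -0.61 and -0.64. The thalamus and habenula sums of all SNL libraries lay above those of all Sham libraries, so group and tissue content cannot be told apart with that covariate.

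**Figure D4:**
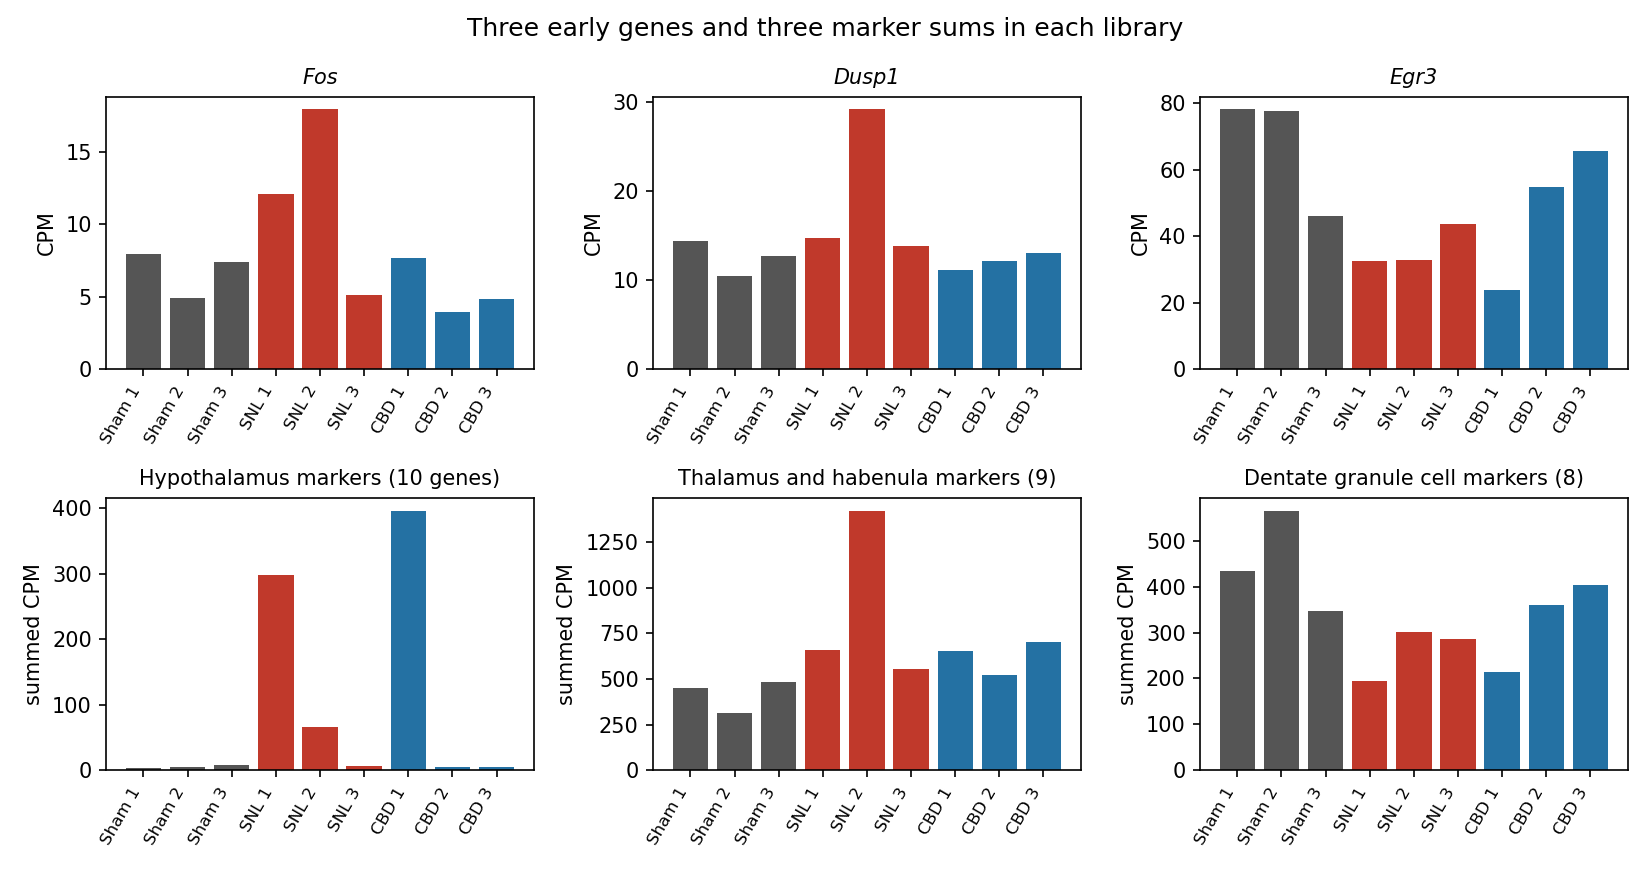
CPM of Fos, Dusp1 and Egr3 (upper row) and summed CPM of hypothalamus, thalamus and habenula, and dentate granule cell markers (lower row) as bars from 0 for each library, coloured by group. Fos and Dusp1 are highest in SNL 2, which also has the highest thalamus and habenula sum, and Egr3 is lowest in SNL 1, SNL 2 and CBD 1.

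Other rapid early genes were read from a list of 32, of which 31 were tested and 0 passed the adjusted threshold in any comparison. In SNL against Sham 23 of the 31 were below 0, with a median of -0.133, and at an unadjusted p under 0.05 there were 9 lower and 2 higher, where the shares of all genes were 7.96% and 5.83%. In CBD against Sham 26 were below 0, with a median of -0.327, and 9 were lower and 1 higher at that p, against 8.87% and 7.41% of all genes. In CBD against SNL 23 were below 0, with a median of -0.155, and 4 were lower and 0 higher, against 7.2% and 6.5% of all genes. Jun, the commonest partner of FOS proteins, was at 107, 119 and 79.5 CPM in Sham, 56, 76.4 and 77.4 CPM in SNL, then 65.3, 64 and 73.1 CPM in CBD. All 6 ligated libraries of Jun lay below Sham (-0.54, SE 0.17, in SNL and -0.59, SE 0.17, in CBD). Of the other NR4A receptors, Nr4a3 was at -0.88 (SE 0.29) and Nr4a2 at -0.05 (SE 0.37) in SNL against Sham. Fosl2, a FOS relative, was at -0.75 (SE 0.28), and Ptgs2, the inducible cyclooxygenase, at -0.87 (SE 0.39). Homer1, a postsynaptic scaffold with a short activity-induced form that gene counts do not set apart, was at -0.42 (SE 0.18). Btg2, an antiproliferative gene, was at -0.325 (SE 0.14). The 2 genes higher at an unadjusted p under 0.05 in SNL against Sham were Dusp1 (0.62, SE 0.26) and Rgs2 (0.43, SE 0.16).

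Dusp1 and Ier2 had their highest library where Fos did. Dusp1, a phosphatase that turns off MAP kinases, was at 14.4, 10.5 and 12.7 CPM in Sham, 14.8, 29.2 and 13.8 CPM in SNL, then 11.1, 12.2 and 13.1 CPM in CBD. Ier2 was at 4.39, 4.95 and 4.44 CPM in Sham, 5.66, 7.94 and 4.83 CPM in SNL, then 4.6, 3.46 and 2.84 CPM in CBD. For both genes SNL 2 was highest, the library that also had the highest thalamus and habenula sum. Every CBD library of both lay below every SNL library, as held for 5 of the 31 genes tested and 10.1% of all genes. In SNL against Sham the log2 fold change was 0.62 (SE 0.26) for Dusp1 and 0.42 (SE 0.24) for Ier2. In CBD against SNL it was -0.67 (SE 0.26) for Dusp1 and -0.76 (SE 0.24) for Ier2, with an adjusted p by edgeR of 0.33 and 0.306.

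Genes that lie upstream also had 0 of 23 pass in any comparison. In SNL against Sham 18 of the 23 were below 0, with a median of -0.295, and 10 were lower and 0 higher at an unadjusted p under 0.05. Of all genes 48.4% were below 0, and 7.96% were lower and 5.83% higher at that p. Srf, which encodes serum response factor, was at 49, 38.3 and 27.9 CPM in Sham, 20.5, 28.6 and 23.9 CPM in SNL, then 20.5, 23.3 and 22.1 CPM in CBD, and all CBD libraries lay below Sham (-0.81, SE 0.19). Crtc1, a coactivator of CREB, was at 333, 320 and 213 CPM in Sham, 148, 176 and 187 CPM in SNL, then 159, 210 and 220 CPM in CBD. Its SNL libraries lay below all Sham libraries (-0.76, SE 0.19). Creb1 (0.09, SE 0.12), Mapk3, the kinase ERK1 (0.01, SE 0.11), and Mef2d (-0.28, SE 0.18) were closer to 0 in that comparison. In CBD against SNL 18 of the 23 were above 0, as were 49.9% of all genes, with a median of 0.205, and 1 was higher and 0 lower at that p, against 6.5% and 7.2% of all, while 8 of the 10 early genes were below 0.

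Of 8 delayed genes 0 passed in any comparison. In SNL against Sham 4 were below 0, and in CBD against Sham 4, where the shares of all genes were 48.4% and 49.9%. In CBD against SNL 6 of the 8 were above 0, as were 49.9% of all genes, with a median of 0.115. The growth factor gene Bdnf was at 30.1, 43 and 26.5 CPM in Sham, 21.9, 18.5 and 26.5 CPM in SNL, then 18.6, 29.6 and 34.9 CPM in CBD. Nptx2, a secreted pentraxin of excitatory synapses, was at 0.11 (SE 0.26) in SNL against Sham. Vgf, a neuropeptide precursor, was at 211, 183 and 183 CPM in Sham, 188, 184 and 165 CPM in SNL, then 173, 117 and 101 CPM in CBD, so its CBD libraries lay below Sham (-0.56, SE 0.18). Among 7 binding partners and corepressors 0 passed. In SNL against Sham 4 were below 0, and in CBD against Sham 5, beside the same shares of all genes. In CBD against SNL 3 were below 0, against 50.1% of all genes. Jund, an AP-1 subunit that is present at rest, was at -0.68 (SE 0.19) in CBD against Sham, and Nab2, which restrains EGR proteins and is one of their targets, at -0.48 (SE 0.19). Its relative Nab1 was at 0.25 (SE 0.13), Arnt2, the partner of NPAS4, at -0.07 (SE 0.12) and Rxra, a partner of NR4A1, at -0.13 (SE 0.17).

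Likeness of pattern was ranked over 15920 genes whose mean reached 1 CPM, with the 10 members left out beforehand. The measure was the correlation of log2 CPM over the 9 libraries with the mean z score of the members. The 8 highest were Gpc1, Akt2, Fbxl18, Insyn1, Sh3bp1, Trmt1, Malat1 and Inf2, none of them on the list of other rapid early genes. Their Pearson r was 0.958 to 0.979 and their Spearman rho 0.883 to 0.983. With group means taken out, r was 0.914 to 0.961. Gpc1, a cell surface heparan sulfate proteoglycan, was at 157.1, 144.7 and 113.5 CPM in Sham, 106.6, 122.7 and 107.3 CPM in SNL, then 92.58, 96.71 and 104.4 CPM in CBD. The median transcript GC content of the 8 was 57.7%, close to that of the members, and the nuclear noncoding RNA Malat1 was lowest, at 42.5%. These genes were picked as the highest of many, so their r is a description of these libraries.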

How the data were processed

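The authors deposited one table of expected counts per gene, the estimated counts of RSEM, which with mouse build GRCm39 is named in the submitters' processing notes. The sources used here do not give the aligner, annotation, versions or read filters. Per the labels' protocols, TRIzol served for RNA and a SMARTER mRNA kit for libraries. The 10 genes and all lists were chosen with earlier results of these data known.

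Expected counts were rounded to whole numbers. Genes were kept by filterByExpr, and libraries scaled by TMM. Groups were compared by the quasi-likelihood F test of edgeR (4.0.16, in R 4.3.3), with 1 factor of 3 groups over 9 libraries and 6 residual degrees of freedom, adjusted by Benjamini-Hochberg over 17967 genes, two-sided, with a threshold of 0.05. The same code was also run on counts simulated from means of the libraries with known fold changes in a set of genes, and no value here rests on that run. Each SE comes from the log2 fold change and its F value. CPM come from the rounded counts and the TMM-scaled library sizes, and log2 CPM use a prior count of 2. Libraries of a group differed beyond sampling noise, with a chi-square per gene of at least 6.46 for every pair. Alternatives were DESeq2 (1.42.0), limma voom with sample weights (3.58.1), DESeq2 size factors, no filter, 1 CPM in 3 libraries, only the 6 libraries compared, the replicate block, offsets for GC content and length (splines with 5 degrees of freedom on the longest GENCODE M21 transcript, known for 98.2% of genes tested), the thalamus and habenula covariate, and fits without libraries. M21 and the RefSeq windows are of an older build than the counts, and served for lengths, GC content and sequences. Named genes were the 10 members, genes marked by role in each list, and the 8 most alike in pattern with a mean of at least 1 CPM.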

Additional observations from a re-analysis of the deposited data

How the results depend on the processing

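For single members, 544 values under the alternatives kept the direction and the side of the threshold, 5 by DESeq2 kept the direction and had no adjusted p, 8 passed it in addition, and 10 changed sign. Those that passed were Egr4 in SNL against Sham by DESeq2 and with no filter, and Egr4 and Junb in CBD against Sham by DESeq2, by limma voom and with no filter. So 1 member was called in SNL against Sham and 2 in CBD against Sham under these settings, against 0 by the main test, and 0 with any 1 library left out. Those with no adjusted p were Egr2 in each comparison and Fosb in CBD against SNL and CBD against Sham. Fos changed sign in SNL against Sham without the libraries with hypothalamic transcripts (-0.395) and with the thalamus and habenula covariate (-0.587). In CBD against SNL, the first of these settings turned Fosb (-0.045), Egr1 (0.052), Egr4 (0.021) and Npas4 (0.201), the covariate turned Fosb (-0.021), the GC and length offsets turned Egr4 (0.069), and Fosb was -0.017 without SNL 1 and -0.007 without CBD 2, the range without any 1 library being -0.017 to 0.199. The cause was not tested.

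Genes called numbered 0 in each comparison. In SNL against Sham they were 253 with no filter, 363 by DESeq2, 1 by limma voom and 1 without the libraries with hypothalamic transcripts, and 0 to 8 without any 1 library, with 7 without Sham 3, 8 without CBD 1 and 1 without CBD 3. In CBD against SNL they were 1, 156, 1132 and 2 in the same order, and 0 to 2, with 2 without CBD 1. In CBD against Sham they were 56, 380, 1051 and 20, and 1 with only the 6 libraries compared, and 0 to 17, with 17 without CBD 1 and 1 without SNL 2. Without any 1 library the median of the members ran from -0.528 to -0.194, -0.377 to -0.173 and -0.719 to -0.487 in the 3 comparisons.

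With the replicate number as a block, 0 members and 0 genes were called and the medians were -0.341, -0.277 and -0.58. Same-numbered libraries had correlated deviations over 0.1 in 2 of 9 pairs, from -0.266 to 0.191, and other pairs in 7 of 18. No pairing by number was visible, but deviations from means of 3 libraries cannot exclude one. Counts of 9 to 20 per library limit Egr2.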
